A study of Homo sapiens with 4 samples.

Results

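The KRAB zinc-finger gene clusters of chromosome 19 were examined for peaks of CDK8, the kinase of the Mediator complex, in HCT116, an established cell line from a human colorectal carcinoma. The clusters were taken as 6 intervals of the GRCh37/hg19 assembly, at 11.7 to 12.5, 19.8 to 24, 36.7 to 38.2, 44.3 to 45, 52.4 to 53.7 and 57.7 to 58.9 Mb, numbered here as clusters 1 to 6. A CDK8 peak belonged to a cluster where its centre lay inside the interval. By this rule 58 of 56111 deposited peaks were members, 15 of 19862 in normoxia, 27 of 21993 in replicate 1 of hypoxia and 16 of 14256 in its replicate 2. Joining peaks that overlapped or touched across the 3 lists gave 29 member regions of 28150 in all, and 1657 regions on the rest of chromosome 19.

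The study mapped CDK8 by chromatin immunoprecipitation and sequencing (ChIP-seq), with 1 library from cells in normoxia, 2 libraries from cells kept for 24 h in hypoxia (1% oxygen), and 1 input library, which was not analysed here. All CDK8 libraries used the same antibody lot, and no genotype or drug differed between them. Whether the hypoxia replicates were separate cultures is not in the labels, so their spread may be technical. The lists hold no read counts, so depth is unknown, and with 1 library against 2 an exact permutation of labels cannot give a p below 0.333; no test between conditions was run.

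KRAB zinc-finger proteins form the largest family of human transcription factors. Each carries an array of C2H2 zinc fingers that reads DNA and, in most members, a KRAB domain that recruits TRIM28 (KAP1) and with it the histone methyltransferase SETDB1, which places the repressive mark H3K9me3. Many members silence transposable elements. Their genes arose by tandem duplication and still stand side by side on chromosome 19, where the gene bodies, mostly their finger-coding last exons, can carry H3K9me3 while the promoters stay open. CDK8, with cyclin C, MED12 and MED13, makes up the Mediator kinase module, which attaches reversibly to Mediator at promoters and enhancers.

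RefSeq's gene table, which is of GRCh38.p14, gives an idea of what such clusters hold. It lists 1451 protein-coding genes on chromosome 19, of which 263 (18.1%) have a zinc-finger symbol of the ZNF, ZFP, ZSCAN, ZIK or HKR kind. These are 47.0% of the 560 such symbols on all chromosomes. In gene order, 213 of the 263 stand in 18 runs of at least 5 zinc-finger neighbours with no other protein-coding gene between them. The longest run holds 27 genes, from ZNF737 to ZNF681, and includes ZNF91, known as a repressor of SVA retrotransposons. The symbols show zinc fingers and not the KRAB domain. This table and the peak lists use different builds, so it served only for names and neighbours, and no peak was assigned to a gene. The 18 runs were not matched to the clusters examined here. The rest of chromosome 19, used below for comparison, may therefore hold zinc-finger genes and runs of them as well.

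CDK8 peaks were sparse in the clusters in every library. The clusters covered 9.7 Mb, 16.5% of the 58.8 Mb between the first and the last listed peak of the chromosome, and held 1.22% (95% interval 0.742 to 2.01) of its peaks in normoxia, 2.11% (1.45 to 3.05) in hypoxia replicate 1 and 1.69% (1.04 to 2.73) in hypoxia replicate 2. In peaks per Mb, normoxia had 1.55 in the clusters against 24.7 in the rest of the chromosome. Hypoxia replicate 1 had 2.78 against 25.5, and hypoxia replicate 2 had 1.65 against 18.9. Peaks were thus 16.0-fold sparser in the clusters in normoxia (exact 95% interval 9.64 to 28.6), 9.16-fold in hypoxia replicate 1 (6.26 to 14.0) and 11.5-fold in hypoxia replicate 2 (7.02 to 20.1). No interval includes 1. The 3 intervals overlap one another, and a difference between the libraries was not detectable. These intervals cover counting error only, and treat peaks as independent. How many reads could be placed in these clusters, which hold many similar genes, was not tested.

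The clusters were also sparse against the genome. Over chromosomes 1 to 22 and X the libraries held 6.77, 7.45 and 4.85 peaks per Mb in normoxia, hypoxia replicate 1 and hypoxia replicate 2. The sparsest of these 23 chromosomes, X, had 2.26, 2.55 and 1.66 peaks per Mb. The cluster values were close to these, while the clusters lie on the chromosome with the densest CDK8 peaks. Their exact Poisson 95% intervals were 0.866 to 2.55 in normoxia, 1.83 to 4.05 in hypoxia replicate 1 and 0.943 to 2.68 in hypoxia replicate 2. Each includes the value of chromosome X in that library, so the clusters and chromosome X cannot be ranked. Covered length showed the same contrast: peaks covered 0.751 bp per kb of the clusters and 11.96 bp per kb of the rest in normoxia, 0.979 and 9.78 in hypoxia replicate 1, and 0.583 and 8.37 in hypoxia replicate 2.

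**Figure D1:**
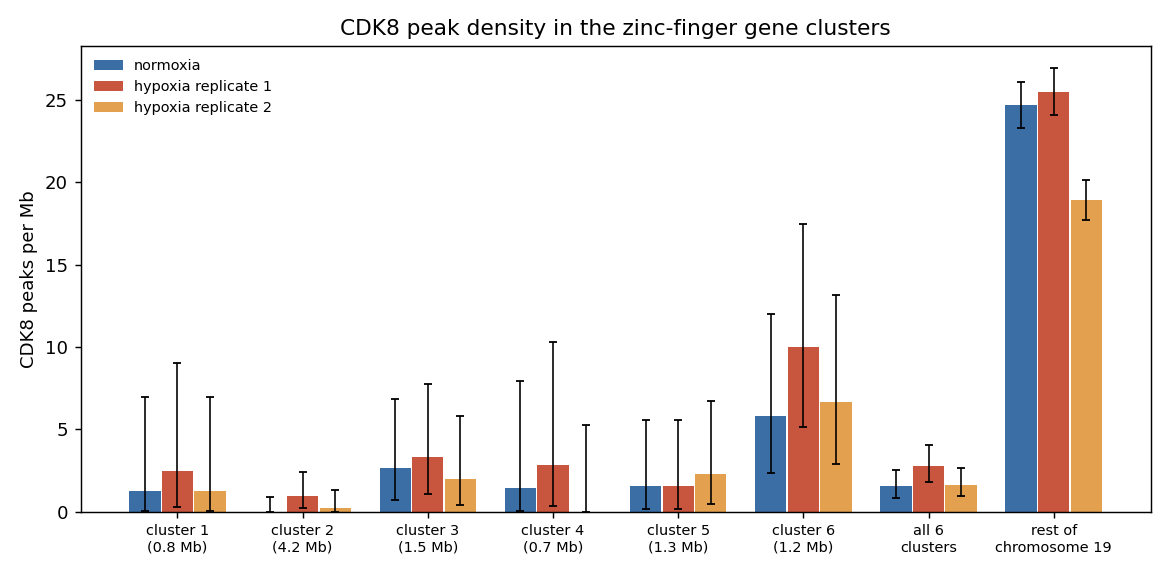
CDK8 peaks per Mb in each zinc-finger gene cluster, in all 6 together and in the rest of chromosome 19, for the 3 libraries; error bars are exact 95% Poisson intervals and cover counting error only. Cluster 2 is nearly empty in every library, cluster 6 has 5.83 to 10.0 peaks per Mb, and the rest of the chromosome has 18.9 to 25.5.

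Peak counts differed among the clusters. Clusters 2 and 6 were picked for comparison as the extremes of these same counts, and their intervals are not adjusted for that choice. Cluster 2, the widest at 4.2 Mb, had the fewest peaks for its length over the 3 lists together: 0 in normoxia, 4 in replicate 1 of hypoxia and 1 in its replicate 2. Cluster 6, at the end of the long arm, had the most, with 7 in normoxia, 12 in replicate 1 of hypoxia and 8 in its replicate 2. That is 5.83 peaks per Mb (exact Poisson 95% interval 2.35 to 12.02), 10.0 (5.17 to 17.5) and 6.67 (2.88 to 13.1). In each library these intervals lie wholly above that of cluster 2, whose upper bounds were 0.878 (for the count of 0), 2.44 and 1.33 peaks per Mb, and wholly below that of the rest of chromosome 19, whose lower bounds were 23.3, 24.1 and 17.7.

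Clusters 1, 3, 4 and 5 lay between these, except cluster 4 in hypoxia replicate 2. In cluster 1 normoxia had 1 peak, hypoxia replicate 1 had 2 and hypoxia replicate 2 had 1. Cluster 3 held 4, 5 and 3 peaks in the same order, cluster 4 held 1, 2 and 0, and cluster 5 held 2, 2 and 3. At 0.7 to 1.5 Mb each, their intervals overlap one another, so clusters 1, 3, 4 and 5 cannot be ranked by density. For cluster 4 in hypoxia replicate 2, the count of 0 allows up to 5.27 peaks per Mb, the upper bound of the same exact interval.

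Both extremes move the pooled value. Without cluster 6, peaks per Mb in the clusters were 0.0381 of the rest in normoxia, 0.0692 in replicate 1 of hypoxia and 0.0498 in its replicate 2, against 0.0626, 0.109 and 0.0872 with it. Without cluster 2 the values were 0.110, 0.164 and 0.144. The scarcity of CDK8 peaks was present with either cluster left out.

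Peak density was lowest deep inside the clusters and higher beyond their edges. Within 50 kb outside an edge there were 25 peaks per Mb in normoxia (exact Poisson 95% interval 14.0 to 41.2), 31.7 in replicate 1 of hypoxia (19.1 to 49.5) and 23.3 in its replicate 2 (12.8 to 39.1). Within 50 kb inside an edge the values were 6.67 (1.82 to 17.1), 11.7 (4.69 to 24.0) and 8.33 (2.71 to 19.4). More than 200 kb inside they were 0.685 (0.222 to 1.60), 1.37 (0.657 to 2.52) and 0.822 (0.302 to 1.79). In every library the innermost interval lies below that of the outer side of the edge, while the 2 zones of 50 kb on either side of the edge overlap. From 500 to 1000 kb outside, density was 20.7, 20.7 and 17.3 peaks per Mb, beside 24.7, 25.5 and 18.9 in the whole of the chromosome outside the clusters. Cluster 2 supplies 3.8 of the 7.3 Mb that lie more than 200 kb inside. The zones within 50 kb and from 50 to 200 kb inside held 4 and 6 peaks in normoxia. They held 7 and 10 in replicate 1 of hypoxia and 5 and 5 in its replicate 2. The last 206 kb of cluster 6 alone held 6, 8 and 6 peaks in the same library order. The zones thus draw unevenly on the clusters, and the profile of each cluster alone was not computed.

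**Figure D2:**
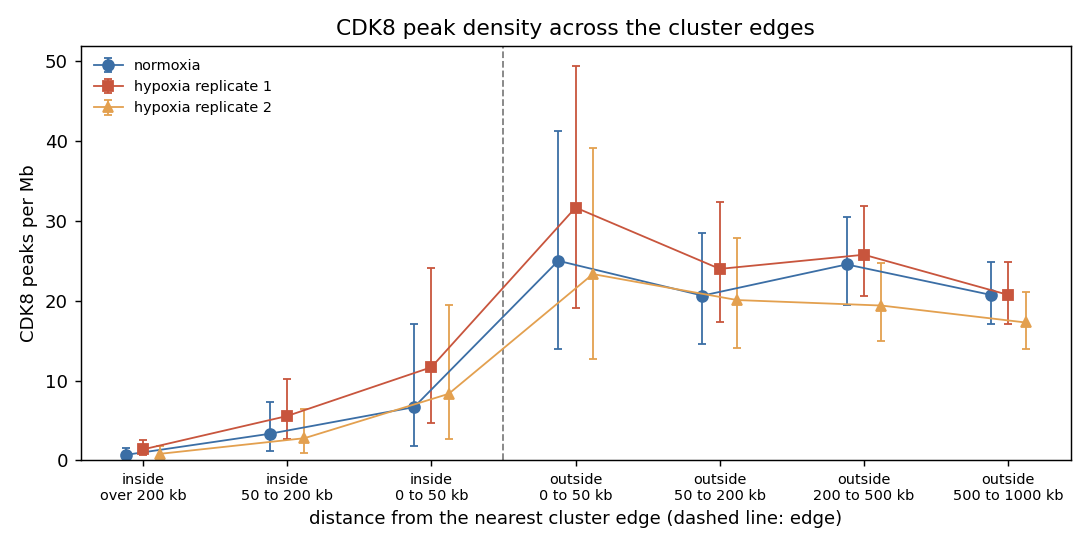
CDK8 peaks per Mb by distance from the nearest edge of a zinc-finger gene cluster, inside (left of the dashed line) and outside, pooled over the 6 clusters for each of the 3 libraries; bars are exact 95% Poisson intervals. Density is 0.685 to 1.37 peaks per Mb deep inside and 17.3 to 31.7 outside. The clusters contribute unevenly to the inside zones and were not profiled singly.

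The edges are whole units of 100 kb and not gene boundaries, so members near them depend on where they were drawn. Of the 29 regions, 7 lay within 50 kb of an edge, in 6.19% of the cluster length, and 5 within 10 kb. The member nearest an edge was the last of cluster 6, 1.68 kb inside, and the next was the first of cluster 4, 2.93 kb inside. The nearest regions just outside were 4.58 kb above cluster 4, in normoxia and hypoxia replicate 1, and 7.13 kb above cluster 6, in all 3 lists. Of the 12 edges, 7 had a region within 50 kb outside. The lower edge of cluster 6 was the farthest from one, at 1048 kb. Without the outer 50 kb of each cluster the density relative to the rest was 0.0490, 0.0862 and 0.0639 in the 3 libraries.

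Long stretches carried no CDK8 region in any library. In cluster 2 the stretch from 21909891 to 24000000, 2090 kb and 49.8% of the cluster, held none. It ran on outside the cluster to 24183532, 2274 kb in all. A further 1624 kb of cluster 2, from 19887763 to 21512050, was also empty. The only longer empty stretches of the chromosome were 3548 kb from 24184283 to 27731821 and 2402 kb from 30433842 to 32836305, both outside the clusters. The first lies in the pericentromeric part, taken as 24 to 28 Mb, and whether reads could be placed there was not tested. With that part left out of the rest, peaks per Mb in the clusters were 0.0575 of the rest in normoxia. They were 0.102 of it in hypoxia replicate 1 and 0.0803 in hypoxia replicate 2. In the other clusters the longest empty stretch was 464 kb in cluster 1, 530 kb in cluster 3, 506 kb in cluster 4, 533 kb in cluster 5 and 583 kb in cluster 6. The median distance between neighbouring regions was 110 kb over the 23 stretches inside a cluster, and 8.63 kb where the stretch touched no cluster.

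Cluster 6 was unevenly filled. After its empty stretch of 583 kb, the last 206 kb of the cluster held 8 of its 11 regions, with 6 peaks in normoxia, 8 in replicate 1 of hypoxia and 6 in its replicate 2. The first 411 kb held the other 3 regions. This division was made after the values were seen.

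The 29 regions were then sorted by the lists that held them. Of these, 9 (31.0%, Wilson 95% interval 17.3 to 49.2) were in all 3 lists, where the share over the whole series was 33.0%. On the rest of chromosome 19 it was 581 of 1657 (35.1%), a difference of -4.03 percentage points (Newcombe 95% interval -18.0 to 14.3). Counted as in at least 2 lists, 17 of 29 (58.6%) and 996 of 1657 (60.1%) were shared, and 58.7% over the whole series. The difference was -1.49 points (-19.5 to 14.6). The other 12 (41.4%) were in a single list, against 39.9% on the rest of the chromosome and 41.3% over the series. No difference in sharing was detectable, though with 29 regions one of up to 19.5 points lies within the interval.

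The 9 regions in all 3 lists were concentrated in cluster 6, which held 6 of them, with 2 in cluster 3 and 1 in cluster 5. Without cluster 6 the share in all 3 lists was 16.7% (3 of 18 regions; 5.84 to 39.2), and the difference from the rest of the chromosome was -18.4 points (-29.5 to 4.27).

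**Figure D3:**
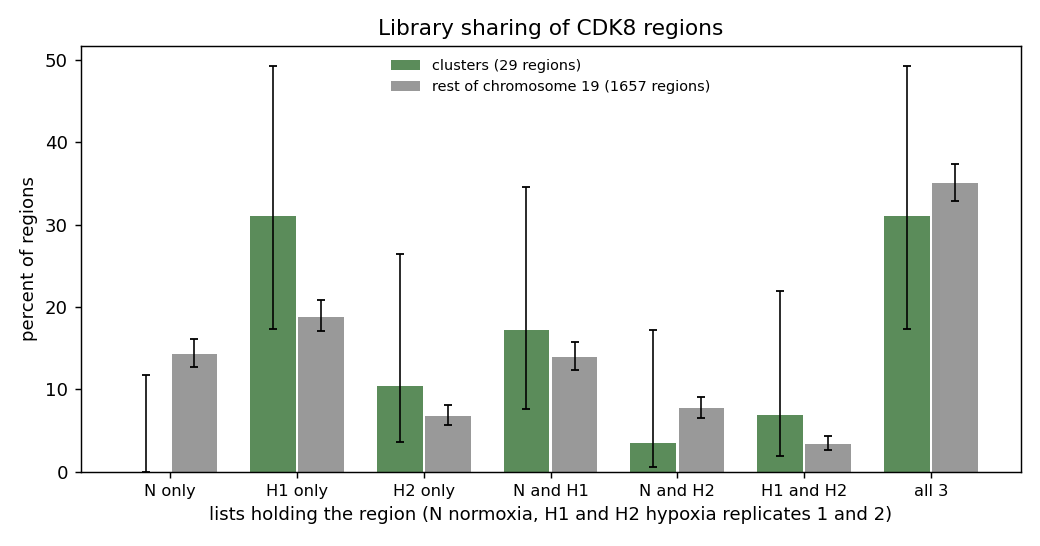
Percent of CDK8 regions by the lists that hold them, for the 29 regions in the clusters and the 1657 on the rest of chromosome 19; error bars are Wilson 95% intervals, counting error only. No cluster region is in normoxia only, against 14.3% in the rest, and the interval for regions in all 3 lists spans the share of the rest.

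Normoxia held a lower share of cluster regions than of regions on the rest of the chromosome, but the intervals of this difference include 0 in some settings. None of the 29 cluster regions was in normoxia alone, which allows a share of up to 11.7% (Wilson 95% upper bound). Normoxia alone held 14.3% of regions on the rest of the chromosome (237 of 1657) and 13.2% over the whole series. The difference was -14.3 points (-16.1 to -2.50). Normoxia listed 15 of the 29 regions (51.7%), against 71.0% on the rest of the chromosome and 68.7% over the whole series, a difference of -19.3 points (-36.7 to -2.27). These are 2 of 12 such differences computed, their intervals are not adjusted for that number, and they are tied to each other. Without hypoxia replicate 2, normoxia alone held 1 of 26 cluster regions (3.85%) against 23.8% on the rest, a difference of -19.9 points (-23.8 to -4.74), and normoxia listed 57.7% against 75.9%, a difference of -18.2 points (-37.1 to -1.31). Without hypoxia replicate 1 both intervals included 0: normoxia alone held 5 of 20 (25%) against 35.5%, a difference of -10.5 points (-24.5 to 11.5), and listed 75% against 87.3%, a difference of -12.3 points (-34.2 to 1.69). The interval of the first difference also included 0 with equal list sizes (-11.2 points, -13.0 to 4.38), with the better-scoring 50% of each list, with joining at 500 bp, without the outer 50 kb of each cluster and without cluster 6 (-14.3 points, -16.1 to 3.36). That of the second did so with the better-scoring 50% of each list (-21.0 points, -44.4 to 2.39) and without cluster 2 (-11.0 points, -30.4 to 5.71). The second difference kept its sign in the settings run. The first did too, but where no cluster region was in normoxia alone its sign could only be negative.

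Hypoxia replicate 1 listed 25 of the 29 regions (86.2%), against 71.2% on the rest of the chromosome and 74.7% over the whole series, a difference of 15.0 points (-1.91 to 23.6). It alone held 9 (31.0%), where the rest had 18.8% and the whole series 22.6%, a difference of 12.2 points (-1.69 to 30.5). Hypoxia replicate 2 listed 15 (51.7%), against 52.9% and 48.3%, and alone held 3 (10.3%), against 6.76% and 5.46%. Normoxia and hypoxia replicate 1 shared 5 regions that hypoxia replicate 2 lacked (17.2%, against 13.9% on the rest and 15.9% over the series). Normoxia and hypoxia replicate 2 shared 1 (3.45%, against 7.72% and 6.65%).

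Peak by peak, hypoxia replicate 1 found 14 of the 15 normoxia peaks (93.3%) and normoxia found 16 of the 27 peaks of hypoxia replicate 1 (59.3%). On the rest of the chromosome those shares were 69.3% and 69.9%. The overlap index, which counts overlapping peaks of both lists over all peaks of both, was 71.4% for this pair in the clusters (56.4 to 82.8) and 69.6% outside. For normoxia and hypoxia replicate 2 it was 67.7% (50.1 to 81.4) and 69.1%. For the 2 hypoxia libraries it was 55.8% (41.1 to 69.6) and 62.2%. In the clusters as outside them, the hypoxia libraries had the lowest index of the 3 pairs, but the cluster intervals of the pairs overlap.

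The clusters held 2 regions that were in both hypoxia lists and not in normoxia (6.90%, 1.91 to 22.0), against 56 (3.38%) on the rest of the chromosome and 3.18% over the whole series, a difference of 3.52 points (-1.56 to 18.6). The first lay in cluster 1 from 11708230 to 11708491, 262 bp and 8.36 kb inside the edge. Its score stood at percentile 56.1 of the hypoxia replicate 1 list and 52.7 of the hypoxia replicate 2 list, where percentile 100 is the best-scoring peak of a list. The second lay in cluster 2 from 21909535 to 21909890, 356 bp, at percentiles 45.7 and 39.4. It was the only region of cluster 2 listed in more than 1 library. All 4 regions of cluster 2 were absent from the normoxia list, the other 3 being in hypoxia replicate 1 alone at percentiles 22.0, 27.3 and 35.5. Normoxia listed 71.0% of regions on the rest of the chromosome and 68.7% over the whole series, so regions absent from it were common elsewhere too. With equal list sizes the count of regions in both hypoxia lists and not in normoxia was 4 of 21, a difference from the rest of 13.9 points (2.48 to 34.9). With a single hypoxia list kept, the regions it held and normoxia lacked were 5 of 20 for hypoxia replicate 2 (25%, against 12.7% on the rest) and 11 of 26 for hypoxia replicate 1 (42.3%, against 24.1%). These differences were 12.3 points (-1.69 to 34.2) and 18.2 points (1.31 to 37.1), and they mirror those for regions listed in normoxia. Normoxia's 15 cluster peaks were 1 fewer than the 16 of hypoxia replicate 2 and 12 fewer than the 27 of hypoxia replicate 1, and the hypoxia libraries differed by 11. The lists differ in length, and as shares of the peaks on chromosome 19, given above, the intervals of the 3 libraries overlap.

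Member peaks were of middling score. The median percentile was 40.4 in normoxia (range 3.64 to 77.6), 44.8 in replicate 1 of hypoxia (7.11 to 83.1) and 42.5 in its replicate 2 (18.1 to 87.8). On the rest of chromosome 19 the medians were 50.0, 46.3 and 50.0. Few members reached the top 20% of a list: 0 of 15 in normoxia (Wilson 95% interval 0 to 20.4%, against 21.8% on the rest of the chromosome), 1 of 27 in replicate 1 of hypoxia (3.70%, 0.657 to 18.3, against 18.2%) and 2 of 16 in its replicate 2 (12.5%, 3.50 to 36.02, against 20.8%). The bottom 20% held 4 members in normoxia (26.7%, against 19.2% on the rest of the chromosome). It held 4 in replicate 1 of hypoxia (14.8%, against 22.6%) and 2 in its replicate 2 (12.5%, against 20.7%). These bottom shares rest on 4, 4 and 2 peaks and no interval was computed for them. No difference from the rest, or between normoxia and hypoxia, is therefore read from them. Members minus the rest, the medians differed by -9.60, -1.52 and -7.47 points, and without cluster 6 by -27.2, -10.8 and -17.3. With equal list sizes the normoxia difference was 0.710 points, of the opposite sign.

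**Figure D4:**
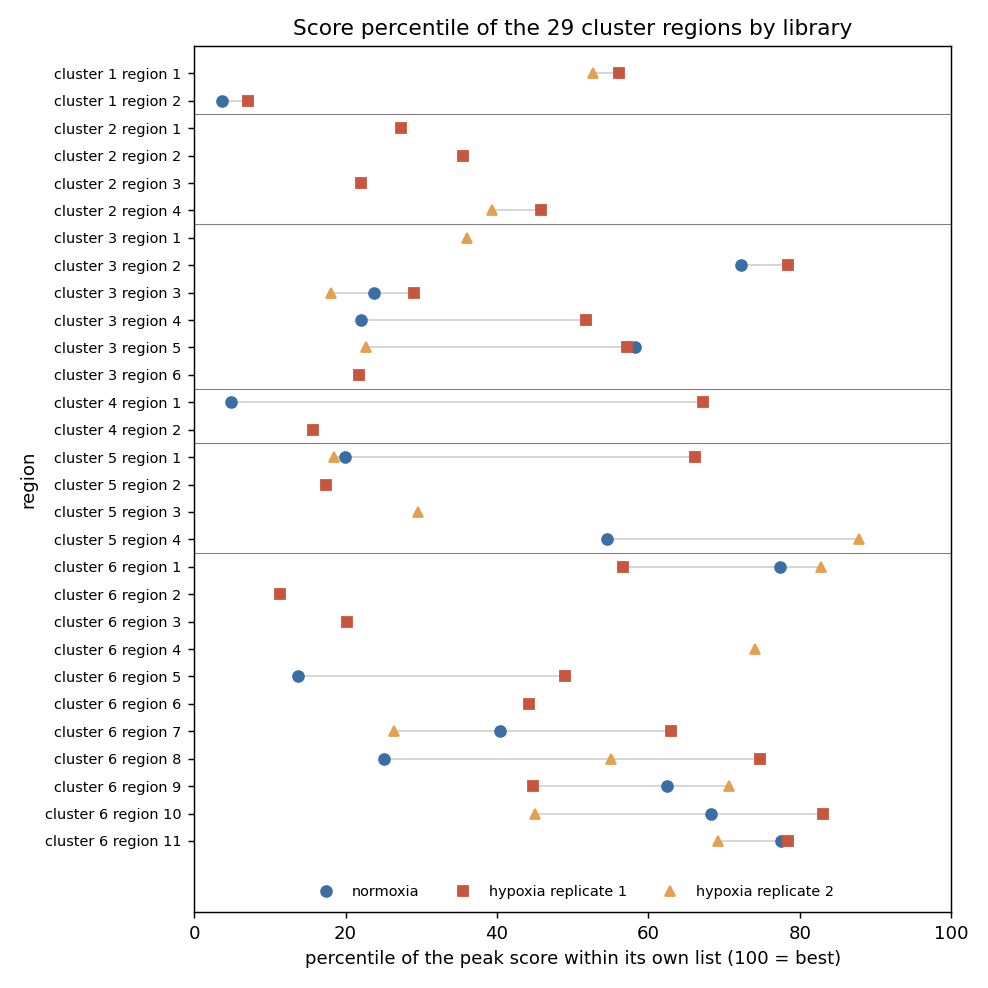
Score percentile, within its own list, of each of the 29 CDK8 regions in the zinc-finger gene clusters, numbered from the short-arm side within each cluster; a symbol is missing where a list does not hold the region. The highest values belong to cluster 5 region 4 (87.8) and to cluster 6, and 12 regions have a symbol from 1 library alone.

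In cluster 6 the best-placed region was its last, from 58897809 to 58898837 (1029 bp). It stood at percentile 77.6 in normoxia, 78.5 in replicate 1 of hypoxia and 69.2 in its replicate 2, and so was above the middle of every list. Next by its lowest percentile was the first region of the cluster, from 57791092 to 57792158 (1067 bp), at 77.4, 56.6 and 82.8. It was 1 peak in normoxia and 2 peaks in each hypoxia list. The widest member, from 58873311 to 58874532 (1222 bp), stood at 62.4, 44.8 and 70.6. Its neighbour from 58891900 to 58892474 (575 bp) stood at 68.2, 83.1 and 45.0. The others in all 3 lists ran from 58816589 to 58816972, at 40.4, 63.0 and 26.4, and from 58838252 to 58838850, at 25.1, 74.8 and 55.1.

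Cluster 6 also held 5 regions that were not in all lists. One, from 58740065 to 58740517, was in normoxia at percentile 13.7 and in hypoxia replicate 1 at 48.9. One was in hypoxia replicate 2 alone, from 58694422 to 58694706, at percentile 74.0 of that list. The other 3 were in hypoxia replicate 1 alone, at 11.3, 20.1 and 44.2.

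Cluster 3 held 2 regions in all 3 lists, 280.3 and 491 kb from its nearer edge. The region from 37708812 to 37709281 (470 bp) stood at percentile 58.2 in normoxia, 57.1 in replicate 1 of hypoxia and 22.7 in its replicate 2. The region from 36980123 to 36980517 (395 bp) stood at 23.7, 29.1 and 18.1, low in every list. A region from 36869832 to 36870210 (379 bp) stood at 72.3 in normoxia and 78.4 in hypoxia replicate 1 and was missing from hypoxia replicate 2, although both other lists placed it above their middle. Another, from 37178247 to 37178636, stood at 22.0 and 51.7 in the same libraries.

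The only region of cluster 5 in all 3 lists, from 52693139 to 52693494 (356 bp), stood at percentile 20.0 in normoxia, 66.1 in replicate 1 of hypoxia and 18.5 in its replicate 2. The region from 53606483 to 53607113 (631 bp) stood at 87.8 in hypoxia replicate 2, the highest of the 16 members in that list, and at 54.5 in normoxia, and was not in the hypoxia replicate 1 list. Each of the other 2 regions was in 1 hypoxia list, at percentiles 17.3 and 29.5.

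Clusters 1 and 4 had 2 regions each and none in all 3 lists. In cluster 4 the region from 44302657 to 44303195 (539 bp) stood at percentile 4.91 in normoxia and 67.3 in hypoxia replicate 1, and was not in hypoxia replicate 2. The other, in hypoxia replicate 1 alone, stood at 15.7. In cluster 1 the second region, from 12035897 to 12036170 (274 bp), stood at 3.64 in normoxia and 7.11 in hypoxia replicate 1, the lowest percentile of a member in either list.

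Regions in more lists were wider. The 9 regions in all 3 lists were 356 to 1222 bp wide, with a median of 575 bp, and the 9 of hypoxia replicate 1 alone were 181 to 443 bp, with a median of 230 bp. On the rest of the chromosome the medians of the same patterns were 589 and 228.5 bp. A region joined from several lists is wider by construction. No member was wider than 2 kb, where 19 of 1657 regions (1.15%) on the rest of the chromosome were, and 3 of 29 (10.3%) were wider than 1 kb, against 6.10%. All 3 lay in cluster 6. Over all members the median width was 356 bp, against 391 bp on the rest of the chromosome.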

How the data were processed

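CDK8 peaks were taken from 3 deposited lists, 1 per CDK8 library. Each line holds a chromosome, a start counted from 0, an end, a peak name of the MACS kind and a score. The score, which the authors deposited with each peak and without a stated scale, was used only as a percentile within its list. By their names the lists are merged, from what is not stated. MACS2 2.0.9, Bowtie 0.12.7, CASAVA 1.8.2 and FastQC, and the build GRCh37/hg19, are named per the submitters' processing notes, with no roles or parameters. For read filters and calling thresholds the sources used here give nothing.

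Peaks of the 3 lists that overlapped or touched were joined into regions, each given its highest percentile in a list; coordinates are printed counted from 1. Overlap required 1 bp. Densities on the rest of chromosome 19 used the span from its first to its last listed peak. Densities have exact Poisson intervals, density ratios exact conditional binomial intervals, shares Wilson intervals and differences of shares Newcombe intervals, all at 95% and for counting error only; the limit printed for a count of 0 is the upper bound of the same interval. Joining, cluster assignment and the ratio interval were tested on simulated data. Clusters, members and comparisons were chosen with earlier results of these data known. The rule for named regions took, per cluster, the 2 regions in all 3 lists with the highest lowest percentile, the best regions in both hypoxia lists and not in normoxia, those of normoxia alone, any wider than 2 kb and the longest empty stretches; other regions were named after their values were seen. No sequence or annotation of GRCh37 was used here. Software was scipy 1.17.1, pandas 2.3.3, numpy 2.4.6 and matplotlib 3.10.9 under Python 3.11.15.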

Additional observations from a re-analysis of the deposited data

How the results depend on the processing

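Over 100 alternative values, 74 were kept and 26 moved. Kept meant inside the 95% interval for ratios and shares and within a set fold for counts. For percentile differences it meant within 4.19 points, their SD over the libraries. Requiring whole peaks inside a cluster, or any overlap, changed no value, so these settings only add to the kept count. The count of 0 regions in normoxia alone had to stay 0 where a cluster or the outer 50 kb was left out. The 74 is therefore not a measure of how stable the results are. Some kept differences changed sign. That in the share in all lists was 0.937 points without cluster 2 and 1.71 without hypoxia replicate 2. The percentile difference in hypoxia replicate 1 was 2.65 without cluster 2. No density ratio rose above 0.164, and none changed sides of 1. Leaving out cluster 6 or the outer 50 kb of each cluster was chosen after seeing the data, as was rerunning the shares of normoxia under each setting. Without cluster 2, the density ratios were 0.110 in normoxia, 0.164 in replicate 1 of hypoxia and 0.144 in its replicate 2, with 1 region in both hypoxia lists and not in normoxia. Without cluster 6, the ratio in hypoxia replicate 1 was 0.0692, the share of regions in all 3 lists 16.7%, its difference from the rest -18.4 points, and the median percentile differences, in the same library order, -27.2, -10.8 and -17.3. Without the outer 50 kb, the percentile differences were -24.9 in normoxia and -6.44 in hypoxia replicate 1, with 1 region in both hypoxia lists and not in normoxia. With the better-scoring 50% of each list, 14 regions were left, the share in all 3 lists was 14.3%, its difference -18.5 points and the percentile difference in hypoxia replicate 1 -8.37. With equal list sizes, 4 regions were in both hypoxia lists and not in normoxia, and the percentile differences were 0.710 in normoxia and -9.69 in hypoxia replicate 1; against flanks of 1 Mb alone the last was -6.93. Leaving out either hypoxia library, the share in all lists left was 50.0 to 53.8%, regions in the hypoxia list left and not in normoxia 5 to 11 and regions in normoxia and not in that list 1 to 5; fewer lists bring this by construction. Beyond that, the cause was not tested. The share of zinc-finger gene starts with a peak was not run, since no annotation of GRCh37 was used here. No paired analysis was possible because normoxia has 1 library and its label carries no replicate number. The lists give no depth, and 15 to 27 peaks per library set the precision.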
